A study of Mus musculus with 10 samples.

Results

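Type 1 conventional dendritic cells (cDC1s) of the mouse spleen that lack both Nfil3 and Zeb2 were compared with wild-type (WT) cDC1s, to describe how near the former lie to the latter. The comparison comprises the 2 arrays titled as Nfil3 Zeb2 double knockout (DKO) and the 3 arrays titled as WT, which are 5 of the 10 arrays of the series. The other arrays are 3 of Zeb2 single knockout (KO) cDC1s and 2 of Zeb2 Id2 DKO cDC1s. All 10 hold RNA of splenic cDC1s, so Zeb2 is deleted in every group except WT, Nfil3 only in the Nfil3 Zeb2 DKO and Id2 only in the Zeb2 Id2 DKO. The strain, age and sex of the mice, the gate used to sort the cells, the alleles and any Cre driver are not given in the sources used here. Nor is it stated whether arrays of a group came from separate mice, so p-values measure the spread between these samples, which may be technical.

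cDC1s are the dendritic cells that take up dead cells and show their antigens to CD8+ T cells on MHC class I. Their development depends on the transcription factors IRF8, BATF3, ID2 and NFIL3. As background, NFIL3 represses Zeb2, ZEB2 represses Id2, and ID2 protein restrains E proteins, which otherwise favour plasmacytoid dendritic cells (pDCs). Mice without Nfil3 make few cDC1s, while cDC1s form without Zeb2. The question for this comparison is therefore what cDC1s are like when both the repressor and the gene it represses are missing.

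Levels are log2 of the deposited array intensities, 1 probe set per gene, for 19938 genes. A difference is the DKO mean minus the WT mean on that log2 scale, and brackets hold its 95% interval. A gene was called when its p from limma, adjusted by the Benjamini-Hochberg method over all genes, was under 0.05. The number of arrays limits the precision. In bulk samples such as these, fewer cells of a type and less RNA per cell cannot be told apart. The median intensity per array lay between 79.3 and 80.0 in WT and was 80.9 and 81.6 in the DKO. Zeb2 KO replicate 3 stood apart from the other Zeb2 KO arrays, and WT replicate 1 carried more B cell signal than the other WT arrays, so the count of called genes is also given with them left out.

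The windows around the starts of 4 genes are shown because the results turn on these genes or because they carry a motif that NFIL3 binds. Each holds 300 bases around a start site of the gene, mostly before it (RefSeq, build GRCm38.p6), written 5′ to 3′ on the gene's strand, with matches to TTATGTAA in capitals. The first belongs to Nfil3, the targeted gene, at chr13:52980990-52981289 on the minus strand. The second belongs to Auh, its neighbour, at chr13:52929628-52929927 on the minus strand. The third belongs to Per3, a clock gene, at chr4:151044616-151044915 on the minus strand. The fourth belongs to Clec12a, an inhibitory lectin receptor, at chr6:129349994-129350293 on the plus strand.
Nfil3: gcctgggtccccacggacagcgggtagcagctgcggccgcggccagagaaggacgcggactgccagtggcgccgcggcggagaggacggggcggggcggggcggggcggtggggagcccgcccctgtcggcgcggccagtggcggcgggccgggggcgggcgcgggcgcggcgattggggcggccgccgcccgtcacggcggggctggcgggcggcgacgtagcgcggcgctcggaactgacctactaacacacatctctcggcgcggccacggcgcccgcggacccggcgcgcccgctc
Auh: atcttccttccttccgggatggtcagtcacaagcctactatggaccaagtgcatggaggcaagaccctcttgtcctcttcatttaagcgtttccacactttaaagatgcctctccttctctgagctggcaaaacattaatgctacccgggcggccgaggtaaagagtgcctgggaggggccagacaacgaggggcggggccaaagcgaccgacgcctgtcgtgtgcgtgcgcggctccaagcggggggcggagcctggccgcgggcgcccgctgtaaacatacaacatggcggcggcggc
Per3: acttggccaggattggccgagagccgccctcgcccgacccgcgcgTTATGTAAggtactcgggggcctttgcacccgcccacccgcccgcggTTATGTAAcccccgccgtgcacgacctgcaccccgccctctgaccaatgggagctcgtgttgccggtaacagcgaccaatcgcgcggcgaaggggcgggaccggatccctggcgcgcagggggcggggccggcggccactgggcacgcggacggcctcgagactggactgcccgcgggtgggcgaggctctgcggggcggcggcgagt
Clec12a: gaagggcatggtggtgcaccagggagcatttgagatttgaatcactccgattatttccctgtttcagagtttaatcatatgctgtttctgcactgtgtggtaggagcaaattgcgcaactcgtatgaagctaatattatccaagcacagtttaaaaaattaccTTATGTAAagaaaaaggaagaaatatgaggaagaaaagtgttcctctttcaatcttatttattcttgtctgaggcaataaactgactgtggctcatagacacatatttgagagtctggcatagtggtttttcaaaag

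Nfil3 was the only gene called between DKO and WT cDC1s (1 of 19938 genes, 0.00502%), and it was lower in the DKO. No gene was called higher (0%). Nfil3, a basic leucine zipper repressor, had log2 levels of 9.98, 10.77 and 10.68 in the WT arrays and of 6.20 and 7.09 in the DKO arrays. The groups did not overlap. The difference of -3.84 [-4.43, -3.25] corresponds to a level 14.3-fold lower, with an adjusted p of 0.000622 by limma. Nfil3 was also lower in the DKO than in Zeb2 KO cDC1s, by a log2 difference of -3.58 (limma, adjusted p = 0.00125), and than in Zeb2 Id2 DKO cDC1s, by -3.61 (limma, adjusted p = 0.000403). The targeted gene thus matched the label in both DKO arrays.

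At an unadjusted p under 0.05, 829 genes (4.16%) differed between DKO and WT, where 997 would pass by the threshold alone. Of these, 395 were higher (1.98%) and 434 were lower (2.18%). The count at this threshold depended on the fit, and was 1479 with only the 5 arrays compared and 1490 without Zeb2 KO replicate 3. Over all genes and with both DKO arrays kept, it ranged from 650 without WT replicate 2 to 1842 with array weights. The levels of the DKO lay wholly above WT for 2608 genes (13.1%) and wholly below WT for 2139 genes (10.7%). The count of called genes depended on single arrays. Leaving out Zeb2 KO replicate 3, which enters only through the shared estimate of spread, gave 7 called genes, 4 higher (Auh, Trgv1, Cd8b1 and Cd6) and 3 lower (Nfil3, Slc26a2 and Dusp18). Leaving out DKO replicate 2 also gave 7, with Pf4, Ppbp, Snord52, Timp3 and Stpg3 higher and Nfil3 and Egr2 lower. Fosl2 was called beside Nfil3 without WT replicate 1, and Adgrl3 beside Nfil3 without WT replicate 3. Without both Zeb2 KO replicate 3 and WT replicate 1, 62 genes were called, 8 higher and 54 lower. Weights estimated per array gave 23, of which 6 were higher and 17 were lower.

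A p that misses the threshold does not show that levels are alike, so closeness was read from the intervals. For 19715 genes (98.9%) the 95% interval of the difference between DKO and WT lay within 2-fold in either direction, that is between -1 and 1. For 17439 genes (87.5%) it lay between -0.5 and 0.5. The median size of a difference was 0.07, and the median distance from an estimate to either end of its interval was 0.24. Estimates exceeded 2-fold for 26 genes, 10 higher and 16 lower. Among the 997 genes in the top 5% of WT signal, 986 (98.9%) had intervals within 2-fold and 839 (84.2%) within 0.5. Only 1 of those 997, Nfil3, had an estimate over 2-fold. Over all genes, intervals of Zeb2 KO minus WT lay within 2-fold for 98.7% and within 0.5 for 88.1%. For Zeb2 Id2 DKO minus WT these shares were 97.2% and 81.9%. The share within 2-fold thus differed little between genotypes, and that within 0.5 was as high in the Zeb2 KO. Such shares also depend on the width of the intervals. With 3 Zeb2 KO arrays, the median distance from an estimate to either end was 0.22. The median size of a difference from WT was 0.08 in the Zeb2 KO, and 36 estimates exceeded 2-fold.

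The distance between a pair of arrays is the root mean square of their log2 differences over all genes. Pairs of a DKO and a WT array lay within the range of the WT pairs or close to it. The upper end of that range rests on WT replicate 1. The 3 WT pairs lay 0.165, 0.222 and 0.223 apart, and the DKO arrays lay 0.163 apart. The 6 pairs of a DKO and a WT array ranged from 0.181 to 0.228 with a median of 0.205. The pair of DKO replicate 2 and WT replicate 2 was the closest of these, and the pair of DKO replicate 1 and WT replicate 1 was the farthest. The WT distances of 0.222 and 0.223 both involve WT replicate 1. Pairs of a DKO array with WT replicate 2 or 3 lay 0.181 to 0.206 apart. WT replicates 2 and 3 lay nearer to each other, at 0.165. By the same measure, WT arrays lay 0.196 to 0.333 from Zeb2 KO arrays and 0.253 to 0.281 from Zeb2 Id2 DKO arrays. DKO arrays lay 0.210 to 0.305 from Zeb2 KO arrays and 0.251 to 0.284 from Zeb2 Id2 DKO arrays. These distances are a description with no test, and pairs that share an array are not independent.

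**Figure D1:**
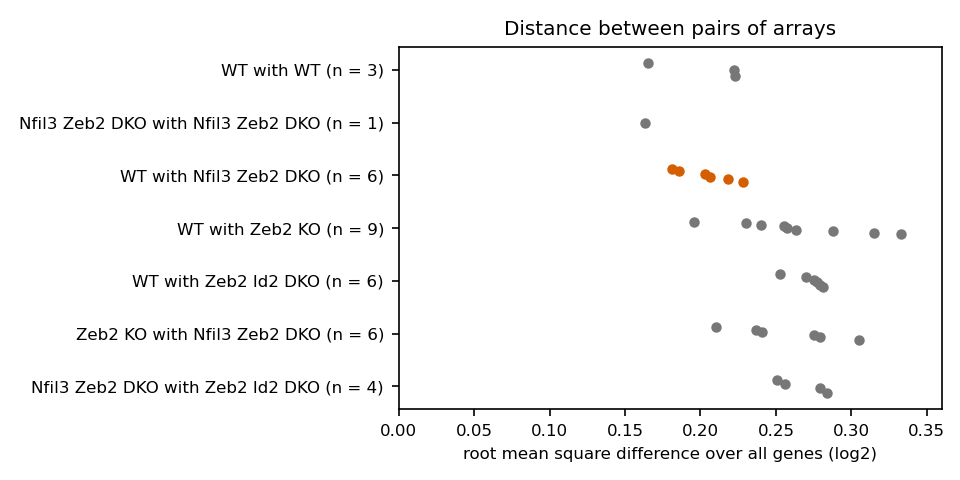
Each point is 1 pair of arrays, and the x axis gives the root mean square log2 difference of the pair over 19938 genes, with a row for each kind of pair. The 6 pairs of Nfil3 Zeb2 DKO and WT arrays lie between 0.181 and 0.228, beside the WT pairs at 0.165 to 0.223 and below the pairs of WT and Zeb2 Id2 DKO arrays, which start at 0.253. The WT pairs at 0.222 and 0.223 both hold WT replicate 1.

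Zeb2 and Id2, the other members of the circuit, were not called. Zeb2, a zinc finger repressor, had levels of 6.0, 5.93 and 6.30 in WT and of 6.46 and 6.24 in the DKO, a difference of 0.27 [-0.21, 0.75]. Which part of Zeb2 was deleted and whether this probe set covers it are not given in the sources used here, so this signal does not check the deletion. Id2, which binds E proteins and keeps them off DNA, had levels of 10.15, 10.32 and 10.43 in WT and of 10.50 and 10.40 in the DKO, a difference of 0.15 [-0.12, 0.42]. The groups overlapped for both genes, and the Id2 interval leaves room for a DKO level at most 1.34-fold higher. In the Zeb2 Id2 DKO, where Id2 is the targeted gene, it stood at 5.01 and 4.98, below the Nfil3 Zeb2 DKO by a difference of 5.46 (limma, adjusted p = 1.28e-08). Of the 7 E protein and ID protein genes measured, all had intervals within 0.5. Tcf4, the E protein on which pDCs depend, differed by -0.02 [-0.28, 0.24].

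The identity genes of cDC1s had a high mean level on every array, and most were near WT in the DKO. The list holds 34 measured genes, with a median signal at percentile 96.4 of WT genes, a rank of signal that also reflects the probes. Its mean level was 10.62, 10.54 and 10.61 in WT and 10.39 and 10.46 in the DKO, Nfil3 included. The only member called was Nfil3 (1 of 34). Intervals lay within 2-fold for 32 of 34 and within 0.5 for 26 of 34. Both shares are lower than the 98.9% and 87.5% of all genes. The median difference was -0.02 against 0.01 over all genes, with 1 of 34 members wholly above WT and 8 of 34 wholly below, beside 13.1% and 10.7% of all genes. These markers thus went with the label as cDC1s in both groups. The gate used to sort the cells is not given. For any surface marker that it used, likeness to WT was set in part by the sort.

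Irf8, the factor that sets the cDC1 fate, had levels of 12.53, 12.55 and 12.45 in WT and of 12.42 and 12.49 in the DKO, a difference of -0.05 [-0.23, 0.13]. Batf3, which sustains Irf8, had 10.04, 10.23 and 10.41 in WT and 10.32 and 10.38 in the DKO, a difference of 0.12 [-0.16, 0.41]. For both factors the DKO levels overlapped the WT range, and the intervals keep any change under 1.34-fold. Xcr1, the receptor for the chemokine XCL1, had 11.64, 11.48 and 11.61 against 11.54 and 11.61, a difference of 0.00 [-0.26, 0.26]. Clec9a, which binds actin exposed on dead cells, had 11.92, 11.86 and 11.95 against 11.87 and 11.91, a difference of -0.02 [-0.23, 0.18]. These surface receptors define the lineage in the spleen, and their DKO levels also overlapped WT. Wdfy4, needed for cross-presentation, differed by 0.01 [-0.25, 0.27], and Tlr3, a sensor of double-stranded RNA, by -0.05 [-0.28, 0.18].

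The spread among the identity genes lay in a few members. Cadm1, an adhesion molecule, had 11.26, 11.21 and 11.25 in WT and 11.04 and 11.14 in the DKO, both below WT, with a difference of -0.15 [-0.37, 0.08] that was not called. Itgae, the CD103 integrin chain, had 10.52, 10.11 and 9.97 in WT and 9.76 and 9.86 in the DKO, a difference of -0.38 [-0.82, 0.05]. Cd8a, the CD8 alpha chain that splenic cDC1s carry, had 10.56, 10.86 and 10.89 in WT and 10.96 and 10.79 in the DKO, a difference of 0.10 [-0.18, 0.39] with overlapping groups. Pianp, a membrane ligand of the receptor PILR alpha, had 9.76, 9.32 and 9.35 in WT and 8.73 and 9.01 in the DKO, the lowest p of the list after Nfil3. Its difference was -0.61 [-1.0, -0.22] and did not pass (limma, adjusted p = 0.942). Hepacam2, an adhesion protein, differed by -0.41 [-1.10, 0.27], and its interval was not within 2-fold. Zbtb46, a factor shared by conventional dendritic cells, spread from 6.42 to 8.19 among WT arrays alone, so its difference of 0.10 [-0.74, 0.94] is poorly known.

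**Figure D2:**
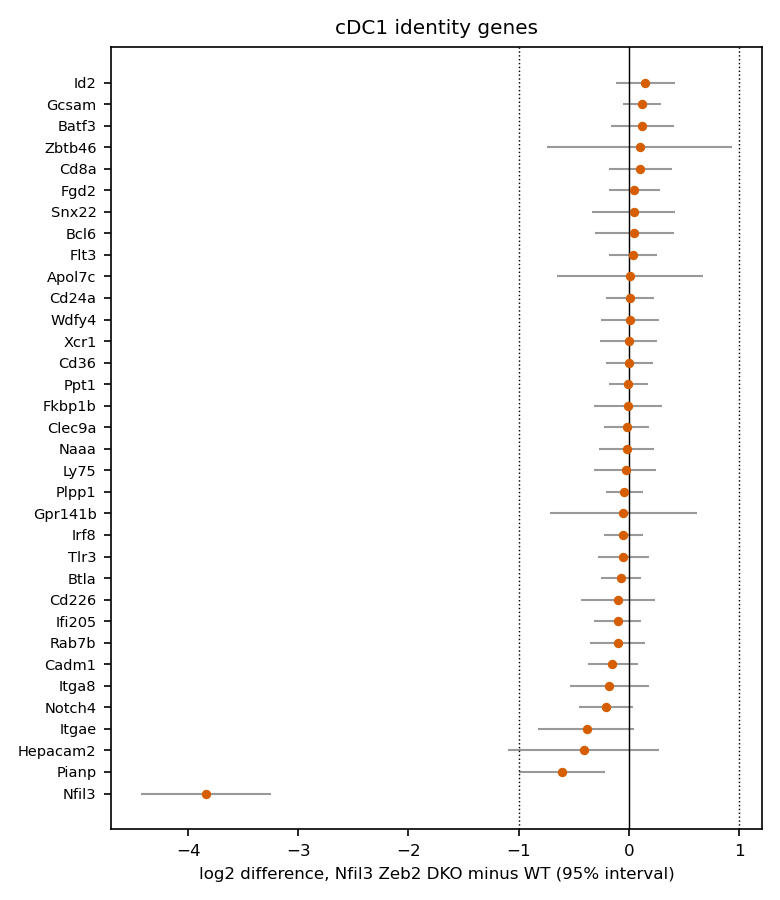
The measured cDC1 identity genes are rows, and the x axis is the log2 difference of Nfil3 Zeb2 DKO minus WT with its 95% interval (n = 2 and 3 arrays). Apart from Nfil3 at -3.84, the estimates gather around 0, and 32 of the 34 intervals stay between -1 and 1.

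Genes that mark other fates of dendritic cells also showed no call against WT. Of 26 cDC2 genes, 24 had intervals within 2-fold, and the median difference was 0.00, with 2 members wholly above WT and 4 wholly below, beside 13.1% and 10.7% of all genes. At an unadjusted p under 0.05, 3 of the 26 were lower and none was higher, beside 2.18% and 1.98% of all genes. These 3 were Rtn1, at -0.57 [-0.88, -0.26], Il1r2, at -0.60 [-1.10, -0.10], and Irf4. Irf4, the factor of cDC2s, had 8.10, 7.48 and 7.44 in WT and 7.29 and 6.89 in the DKO, a difference of -0.58 [-1.14, -0.01] with both DKO arrays below WT. Sirpa, their signal-regulatory surface protein, differed by 0.14 [-0.33, 0.61]. Of 27 pDC genes, 24 had intervals within 2-fold, with a median of 0.02, and 3 members lay wholly above and 3 wholly below, beside the same 13.1% and 10.7%. Siglech, a pDC lectin, had 5.97, 6.56 and 6.42 in WT and 6.87 and 6.53 in the DKO, overlapping values with a difference of 0.39 [-0.02, 0.79]. Flt3, the cytokine receptor that drives dendritic cell development, differed by 0.04 [-0.18, 0.26].

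The presentation lists were near WT, and the transcription factor list less so. Among 37 dendritic cell transcription factors, 33 had intervals within 2-fold and 25 within 0.5, beside 98.9% and 87.5% of all genes. The median was -0.09, with Nfil3 the only call (1 of 37). Of the 37, 2 lay wholly above WT and 7 wholly below, beside 13.1% and 10.7% of all genes. At an unadjusted p under 0.05, 1 was higher and 4 were lower, beside 1.98% and 2.18%. The 6 C/EBP factors measured, relatives of NFIL3 in the leucine zipper class, had a median of 0.05 and all had intervals within 2-fold. Antigen presentation on MHC class I gave 23 of 24 intervals within 2-fold and a median of 0.00. The exception was Cybb, the NADPH oxidase subunit, at -0.65 with an unadjusted p of 0.0194. Presentation on MHC class II gave 15 of 15 within 2-fold and a median of -0.02. Both lists include machinery that cDC1s use to prime T cells, and neither held a called gene.

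Further groups by role also held no called gene. The 15 Toll-like receptors and adaptors, the 15 survival genes and the 18 growth factor receptors all had intervals within 2-fold, with medians of 0.03, -0.06 and 0.00. Of 29 cell cycle genes 28 had intervals within 2-fold (median 0.03), and none lay wholly above or below WT. Of 21 chemokine and chemokine receptor genes 18 had such intervals (median 0.07). Of 31 maturation genes 29 had them (median -0.07), with 1 member wholly above WT and 7 wholly below, beside 13.1% and 10.7% of all genes. At an unadjusted p under 0.05, 6 of the 31 were lower and 1 was higher, beside 2.18% and 1.98% of all genes. Cd80, a costimulatory ligand of CD28, was among those wholly below, with 10.35, 10.59 and 10.44 in WT and 10.01 and 10.10 in the DKO. Of 28 interferon-stimulated genes 26 had intervals within 2-fold, with a median of -0.07. Of 14 epithelial genes that ZEB factors repress elsewhere, 13 had intervals within 2-fold (median 0.06), and the tight junction gene Cldn1 had the largest estimate at 0.74.

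Immediate early and stress genes, which switch on quickly when cells are stimulated, had a median difference of -0.28 over 25 members, against 0.01 over all genes. None was called, 8 of 25 were lower at an unadjusted p under 0.05 and none was higher, beside 2.18% and 1.98% of all genes. Levels lay wholly below WT for 10 of 25, beside 10.7% of all genes. Egr2 had 11.68, 11.67 and 11.77 in WT and 10.60 and 11.26 in the DKO, a difference of -0.78. Fosl2, an AP-1 subunit, had 8.92, 9.56 and 9.46 in WT and 8.55 and 8.57 in the DKO, a difference of -0.75. Nr4a3, an orphan nuclear receptor, had 9.82, 9.99 and 10.05 in WT and 9.34 and 9.47 in the DKO, a difference of -0.54. All 3 genes had DKO levels below every WT array. The list's mean level was 10.50, 10.92 and 10.93 in WT and 10.45 and 10.53 in the DKO, so WT replicate 1 stood within the DKO range. Against the same WT arrays, the list's median difference was -0.34 in the Zeb2 KO and -0.25 in the Zeb2 Id2 DKO. Between the Nfil3 Zeb2 DKO and the Zeb2 KO it was 0.08, so the lower level was not particular to the Nfil3 Zeb2 DKO.

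**Figure D3:**
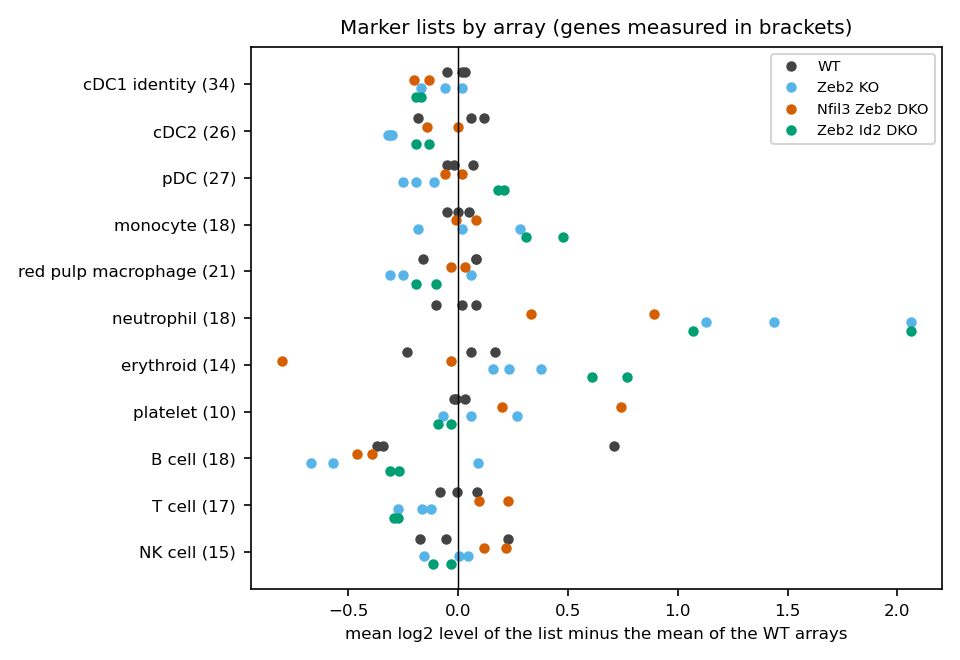
Each row is a gene list, each point is 1 array coloured by genotype, and the x axis is the mean log2 level of the list minus its mean over the WT arrays. In the neutrophil row the DKO (levels of 6.78 and 7.34) lies right of WT (6.35 to 6.53), WT replicate 1 (7.97) stands alone at the right of the B cell row, and DKO replicate 1 (6.17) stands alone at the left of the erythroid row.

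Markers of other blood cells accounted for many of the larger estimates. Of the 26 genes with an estimate over 2-fold, 6 were immunoglobulin segments or Jchain, 6 were neutrophil genes and 2 were platelet genes, a grouping made after their values were seen. The 12 others were Nfil3, Kcnma1, Hspa1l, Car1, Fcmr, Adgrl3, Slc25a33, Gcnt2, Tnfsf18, Ctla4, Auh and Cd8b1. Within them Fcmr is a B cell receptor for IgM and Car1 is a carbonic anhydrase of red cells. Kcnma1, a potassium channel gene, was at 11.56 in WT replicate 1 and at 4.46 and 4.10 in the other WT arrays, so its estimate rests on that array.

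None of the 18 neutrophil genes was called, and their median difference was 0.36, with a range from 0.08 to 1.52. In 11 of 18 the DKO lay wholly above WT, beside 13.1% of all genes. Ngp, a granule protein of neutrophils, had 8.57, 8.37 and 8.71 in WT and 9.73 and 10.41 in the DKO, a difference of 1.52 (limma, adjusted p = 0.766). S100a8, a calcium-binding alarmin, differed by 1.39 and Lcn2, an iron-trapping lipocalin, by 1.32. The mean level of the list was 6.47, 6.35 and 6.53 in WT, 6.78 and 7.34 in the DKO, 8.51, 7.58 and 7.89 in the Zeb2 KO and 7.52 and 8.51 in the Zeb2 Id2 DKO. The DKO arrays were thus above every WT array and below every array of the other genotypes. The part of neutrophil RNA in other differences was not tested.

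Platelet genes, a list added after the values were seen, had a median difference of 0.13 over 10 members, none called. Pf4, a platelet chemokine, had 4.93, 5.10 and 4.84 in WT and 8.29 and 5.97 in the DKO, a difference of 2.17 [1.10, 3.24] (limma, adjusted p = 0.563). Ppbp, another, had 4.79, 4.70 and 4.89 against 8.08 and 5.44, a difference of 1.97. Most of both differences comes from DKO replicate 1, whose mean over the list was 7.01 against 6.47 in replicate 2 and 6.25 to 6.30 in WT. The 14 erythroid genes had a median of -0.31, with means of 7.14, 7.03 and 6.74 in WT and of 6.17 and 6.94 in the DKO. The 18 B cell genes had a median of -0.48, with means of 7.97, 6.89 and 6.92 in WT and of 6.87 and 6.80 in the DKO, so WT replicate 1 alone was high. No gene of these lists was called, and the part of such RNA in other differences was not tested.

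None of the T cell, natural killer (NK) cell, monocyte or red pulp macrophage genes was called. The 17 T cell genes had a median of 0.12, with 5 members wholly above WT and none wholly below, beside 13.1% and 10.7% of all genes. The 15 NK cell genes had a median of 0.15, with 4 wholly above and 1 wholly below, and 3 of 15 were higher at an unadjusted p under 0.05, beside 1.98% of all genes. The 18 monocyte genes had a median of 0.07, with 6 wholly above and 2 wholly below, beside the same 13.1% and 10.7%. The 21 red pulp macrophage genes had a median of 0.00, with 1 wholly below. The part of RNA from these cells in other differences was not tested.

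The genes with the smallest p after Nfil3 did not pass the test, and their values are given as a description. Auh, an RNA-binding hydratase of leucine breakdown, had 7.66, 7.68 and 7.87 in WT and 8.95 and 9.01 in the DKO. The groups did not overlap, and the difference was 1.24 [0.76, 1.72] (limma, adjusted p = 0.512). Auh is also high beside the other genotypes, at 7.78, 7.64 and 6.85 in the Zeb2 KO and 7.74 and 7.71 in the Zeb2 Id2 DKO. Against the latter the difference of 1.25 passed (limma, adjusted p = 0.0431), though not when any 1 array of WT or of either double knockout was left out, or with arrays centred on their medians (0.059 to 0.292 over these fits). Against the Zeb2 KO the difference of 1.56 did not pass (limma, adjusted p = 0.152).

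Cd8b1, the CD8 beta chain, which cDC1s carry little of beside CD8 alpha, had 6.93, 7.82 and 7.72 in WT and 9.30 and 9.18 in the DKO. Its difference of 1.75 [0.92, 2.58] had an adjusted p of 0.522 by limma, while Cd8a differed by 0.10. Cd6, a lymphocyte scavenger receptor, had 6.68, 7.06 and 6.98 in WT and 7.79 and 7.78 in the DKO, a difference of 0.88 (limma, adjusted p = 0.512). Both genes had DKO levels above every WT array. The other genes of this group with the smallest p on the higher side besides Pf4 were Zfp790, Klrb1f, Zfp599, Pilrb2, Il31ra and Adh6a, with differences of 0.32 to 0.54.

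On the lower side, Adgrl3, a latrophilin adhesion receptor, had 7.90, 8.15 and 7.35 in WT and 6.57 and 6.85 in the DKO, a difference of -1.09 [-1.5, -0.68]. Gcnt2, a glycosyltransferase of branched sugars, had 8.14, 8.49 and 8.59 against 7.0 and 7.68, a difference of -1.07. Clec7a, the beta-glucan receptor dectin-1, had 8.29, 8.73 and 8.89 against 7.43 and 7.87, a difference of -0.99. For each of the 3 genes the groups did not overlap, yet none passed, with limma's adjusted p for the lower genes of this group between 0.512 and 0.522. Slc26a2, a sulfate transporter, had 7.82, 7.88 and 7.86 against 7.25 and 7.24, a difference of -0.61 with little spread in either group. Trim35, an E3 ligase, had 10.15, 10.16 and 10.14 against 9.76 and 9.74, a difference of -0.40. Ramp3, Slc41a1, Dusp4, Plagl1 and Mpzl2 had differences between -0.74 and -0.64.

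**Figure D4:**
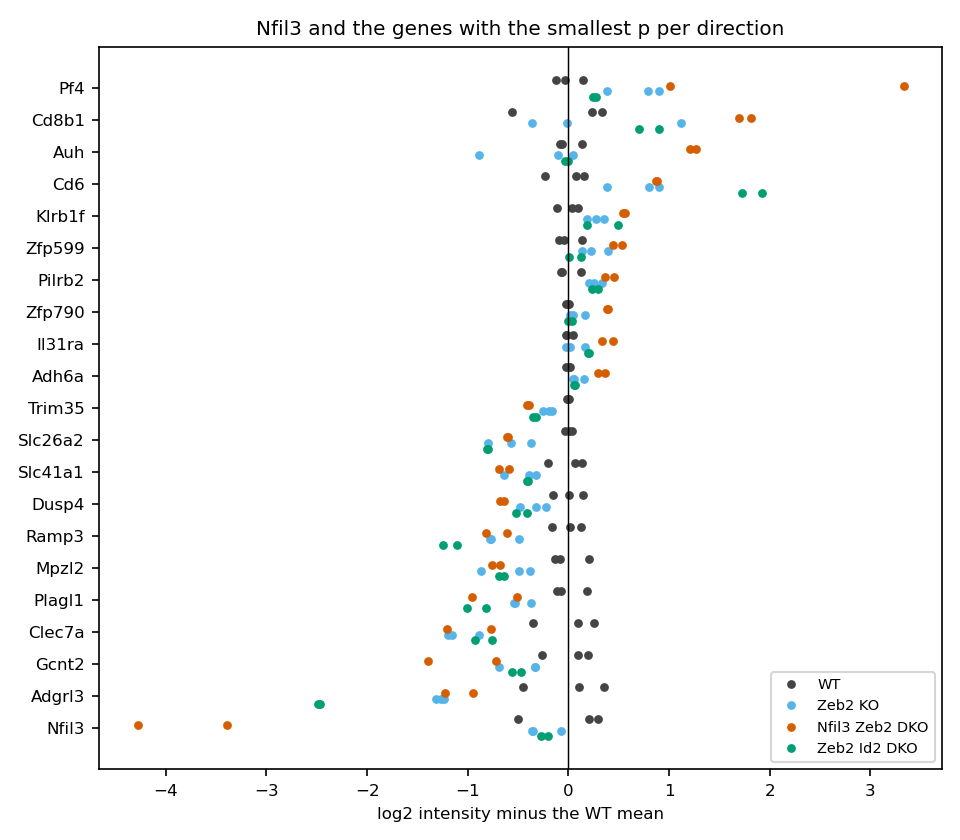
Rows are Nfil3 and the 10 genes in each direction with the smallest p between Nfil3 Zeb2 DKO and WT, each point is 1 array coloured by genotype, and the x axis is the log2 level minus the WT mean. Nfil3 is the only called gene, and Auh (8.95 and 9.01 in the DKO) lies right of the 8 other arrays.

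The other Zeb2-deleted cells share their WT arrays with this comparison, so the differences from WT of these genes stand side by side only. For Adgrl3 the difference from WT was -1.28 in the Zeb2 KO and -2.48 in the Zeb2 Id2 DKO, beside -1.09 in the Nfil3 Zeb2 DKO. For Clec7a these were -1.08 and -0.84, beside -0.99. For Slc26a2 they were -0.58 and -0.81, beside -0.61. Cd6 had 0.70 and 1.82, beside 0.88, and Cd8b1 had 0.25 and 0.80, beside 1.75. Tested directly, the Nfil3 Zeb2 DKO differed from the Zeb2 KO by 1 called gene (0.00502%), which was Nfil3. That count was 4 without WT replicate 1, 8 without Nfil3 Zeb2 DKO replicate 2 and 106 without Zeb2 KO replicate 3, and it was 266 when WT replicate 1 and Zeb2 KO replicate 3 were both left out. For Adgrl3 the direct difference from the Zeb2 KO was 0.19 [-0.22, 0.60] and for Clec7a 0.09 [-0.31, 0.50]. Against the Zeb2 Id2 DKO, Adgrl3 was higher in the Nfil3 Zeb2 DKO by 1.39 [0.94, 1.84] (limma, adjusted p = 0.0114), a call lost without any 1 of the 4 double knockout arrays (0.0853 to 0.112). Cd6 was lower in the same comparison, with a difference of -0.95 [-1.33, -0.56] (limma, adjusted p = 0.0379), a call lost without any 1 of those arrays, without WT replicate 2 or 3, or with arrays centred on their medians (0.0532 to 0.293). Clec7a differed by -0.15 [-0.59, 0.30] there and was not called.

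The neighbours of the targeted genes were examined because a deleted allele can bring linked sequence with it. Auh lies beside Nfil3 on chromosome 13, at chr13:52835107-52929704, and 37504 bases separate it from Nfil3 at chr13:52967209-52982878 (GRCm38.p6, both on the minus strand). Of the 20 measured neighbours of Nfil3, 10 on either side, none was called (0 of 20, beside 0.00502% of all genes). Auh and Simc1 had an unadjusted p under 0.05, and the Simc1 difference was -0.53. Differences over the 20 ranged from -0.53 to 1.24 with a median of 0.00, and 19 had intervals within 2-fold. Of the 20 neighbours of Zeb2 none was called and none had an unadjusted p under 0.05, and differences ranged from -0.22 to 0.21.

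Motifs bound by NFIL3 were looked up in the windows around gene starts, since loss of a repressor could be read at such genes. TTACGTAA or TTATGTAA, on either strand, occurs in 347 of 32851 windows of this length (1.06%). The Per3 window printed above holds 2 matches and the Clec12a window 1, and these are the only genes with a match among the 350 list genes with a window. Per3 had levels of 6.05, 6.13 and 6.18 in WT and of 6.09 and 5.99 in the DKO, a difference of -0.08 [-0.28, 0.13]. Clec12a had 10.14, 10.36 and 10.51 against 10.34 and 10.34, a difference of 0.01 [-0.30, 0.32]. Neither gene was called, and each interval held differences of both signs. Over the 182 measured genes with a match none was called, and 3 were higher and 1 was lower at an unadjusted p under 0.05 (2.2%, beside 4.07% of all genes with a window). Their median difference was 0.02, against 0.01 over 15562 genes with a window. The windows of Nfil3 and Auh hold no match, which says only that these letters are not there.

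The PAR factors bind the same letters as activators, and they and the clock genes were near WT as well. Of 17 genes of this list measured, 16 had intervals within 2-fold, and the median was -0.01. The activators Dbp, Tef and Hlf differed by -0.13, -0.03 and 0.05. The letters CAGGTG, an E-box that ZEB factors bind, occur in 6640 windows (20.2%). Over 3456 measured genes with that match none was called, the median was 0.02, and 79 were higher and 61 were lower at an unadjusted p under 0.05 (4.05%, beside 4.07% of all genes with a window).

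Set against the Zeb2 Id2 DKO, the same cells stood farther away than from WT. The direct comparison of Nfil3 Zeb2 DKO with Zeb2 Id2 DKO cDC1s, 2 arrays each, called 158 genes (0.792%), 42 higher (0.211%) and 116 lower (0.582%) in the Nfil3 Zeb2 DKO. Intervals lay within 0.5 for 74.7% of genes and estimates exceeded 2-fold for 165. Against WT, with the same numbers of arrays as here, the Zeb2 Id2 DKO had 286 called genes (1.43%), 175 higher (0.878%) and 111 lower (0.557%). The Zeb2 KO had 4 against WT (0.0201%), 1 higher (0.00502%) and 3 lower (0.015%). Estimates over 2-fold from WT numbered 26 in the Nfil3 Zeb2 DKO, 36 in the Zeb2 KO and 166 in the Zeb2 Id2 DKO. The counts of calls moved with single arrays in each comparison, and that of the direct comparison of the double knockouts ranged from 23 without Nfil3 Zeb2 DKO replicate 1 to 704 without Zeb2 KO replicate 3. Without Zeb2 KO replicate 3, the counts against WT were 7 for the Nfil3 Zeb2 DKO, 165 for the Zeb2 KO and 760 for the Zeb2 Id2 DKO.

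**Figure D5:**
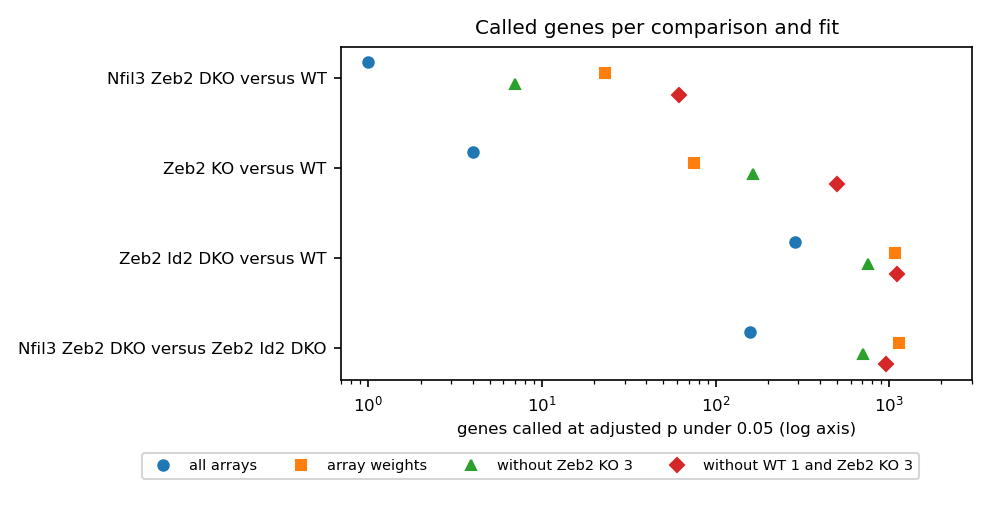
The x axis, on a log scale, is the number of genes called at a limma adjusted p under 0.05, with a row per comparison and a mark per fit. Nfil3 Zeb2 DKO versus WT has 1 called gene with all arrays and 62 without WT replicate 1 and Zeb2 KO replicate 3, while Zeb2 Id2 DKO versus WT has 286 and 1104.

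Interferon-stimulated genes were the list with most calls in that direct comparison. Of 28, 15 were lower in the Nfil3 Zeb2 DKO than in the Zeb2 Id2 DKO and none was higher, beside 0.582% and 0.211% of all genes, with a median difference of -1.0. Isg20, an antiviral exonuclease, had 7.34 and 7.89 in the Nfil3 Zeb2 DKO, 9.13 and 9.50 in the Zeb2 Id2 DKO and 7.90, 8.0 and 7.85 in WT. Its direct difference of -1.70 passed (limma, adjusted p = 0.00284). Rsad2, which encodes viperin, differed by -1.89 (limma, adjusted p = 0.00362), a call lost without DKO replicate 1 (adjusted p = 0.0702). Against WT, the Isg20 levels of the Nfil3 Zeb2 DKO overlapped, with a difference of -0.30, and those of Rsad2 lay below, with a difference of -0.67, and neither was called.

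The pDC list gave 4 genes lower and none higher among 27 in the same direct comparison, beside 0.582% of all genes lower and 0.211% higher. Siglech was among them at -1.28 (limma, adjusted p = 0.0149). The call for Siglech was lost whenever an array of either double knockout was left out (adjusted p 0.0853 to 0.142). The cDC1 list gave 3 genes higher and 2 lower among 34, beside the same shares, including Id2 and Nfil3 themselves. Cadm1 was higher by 0.73 (limma, adjusted p = 0.0146), and this call too was lost without any 1 of the 4 double knockout arrays (0.0679 to 0.174). Cadm1, Siglech and Isg20, picked from the genes called in this comparison, each stood nearer to WT in the Nfil3 Zeb2 DKO than in the Zeb2 Id2 DKO. Other genes went the other way. Pianp differed from WT by -0.61 in the Nfil3 Zeb2 DKO and 0.09 in the Zeb2 Id2 DKO, Auh by 1.24 and -0.01, and Cd8b1 by 1.75 and 0.80.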

How the data were processed

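RNA of splenic cDC1s of 4 genotypes was hybridised to 10 single-colour Affymetrix mouse gene arrays. The deposited intensity values are linear; per the submitters' processing notes the authors used Affymetrix Expression Console and RMA, which correct background, normalize between arrays and summarise probe sets, and thereby compress differences of dim genes. Here log2 of the values was taken, with no further normalization. Of 28853 probe sets, 21789 named 1 gene, 1621 several and 5443 none in the platform annotation; 19938 genes were kept, each by its probe set with the highest mean (999 had more than 1).

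limma 3.58.1 in R 4.3.3 fitted a mean per genotype over all 10 arrays (6 residual degrees of freedom), which share 1 estimate of spread, and p-values were adjusted over all genes. The fit was tested on simulated data in which all arrays of a gene had the same spread. That test does not cover arrays that stand apart, such as Zeb2 KO replicate 3. The labels give no batch.

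Named genes were Nfil3, Zeb2 and Id2, a panel of dendritic cell genes, called genes, the 10 smallest p in each direction (predicted genes, small RNAs, receptor segments and sex-linked genes left out), up to 4 genes of each list with the smallest p and the one with the highest WT level, and neighbours of the targeted genes. Genes outside it (Simc1, Kcnma1, Slc25a33, Ctla4, Tnfsf18, Hspa1l, Dbp, Tef, Hlf, Per3 and those called in 1 alternative fit, among others) were chosen after their values were seen. The comparison and the lists were chosen with earlier results of these data known. Alternatives were other arrays in the fit, the replicate number as a block, the probe set rule, a level filter, normalization, the eBayes options and leaving out each array.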

Additional observations from a re-analysis of the deposited data

How the results depend on the processing

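Nfil3 was called lower in the DKO under all 19 alternatives, with differences from -4.28 to -3.39 and limma adjusted p from 2.51e-05 to 0.0167. The count of called genes was 2 with only the 5 arrays compared (1 higher, Auh, and 1 lower), 23 with array weights (6 higher, 17 lower) and, when replicate 1 of WT and replicate 3 of the Zeb2 KO were left out together, chosen after seeing the data, 62 (8 higher, 54 lower). Leaving out 1 array at a time gave 1 to 7 called genes, 0 to 5 higher and 1 to 3 lower, and 19436 to 19788 genes with intervals within 2-fold; a lone DKO array was assumed to vary like the other groups. A filter at a mean of at least 6 on the log2 scale left 11925 genes, of which 11727 had such intervals, because fewer genes were tested. The other settings kept the count at 1. Deviations of same-numbered arrays of DKO and WT had correlations of 0.046 and 0.08. With 2 DKO arrays, their deviations from the group mean mirror each other, so this check cannot exclude pairing. The numbers were not taken as pairs in the main fit, and the replicate block gave 1 called gene and 19708 intervals within 2-fold. Over all probe sets, an alternative chosen after seeing the data, none of the 5443 naming no gene was called (185 at an unadjusted p under 0.05, smallest limma adjusted p 0.762). For 153 named genes compared between DKO and WT, 42 values under an alternative newly passed, and Nfil3, the one that had passed, was not lost. With 2 DKO arrays, differences of dim or variable genes are poorly known.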
